A study of Mus musculus with 4 samples.

Results

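Neurod2 and Bhlhe22, the gene pair described here, were chosen by name, as 2 of the 300 genes on a custom Xenium panel, and were followed in 131379 retinal ganglion cells (RGCs) of 45 types. Xenium decodes single transcripts as puncta in tissue sections. The tissue was 5 retinas of wild-type C57BL/6 mice, kept without manipulation and cryosectioned en face, that is parallel to the retinal surface, at 20 µm. No treatment or altered genotype was used, and the sources used here give no age. The retina was taken as the replicate (n = 5). Whether each retina is from its own animal is not stated, so the p-values rest on a spread between retinas that may be technical. The study set out to map where RGC types lie in the retina. The comparisons below ask in which types each factor was found, whether both were found in the same cells, and whether their levels changed with position.

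Both genes encode basic helix-loop-helix transcription factors, a family whose members bind as pairs to short DNA motifs called E-boxes and often set the fate of neurons. Neurod2 is a neuronal differentiation factor used by several retinal neurons, among them amacrine cells and some ganglion cells. Bhlhe22, also known as Bhlhb5, is a repressor of the Olig-related branch that is needed for particular amacrine and bipolar cells and is found in some ganglion cells. Neurod2 (gene ID 18013) lies at chr11:98325415-98329645 and Bhlhe22 (gene ID 59058) at chr3:18054325-18057514, both protein-coding, in GRCm38.p6.

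The sequence before the start of Neurod2 is shown because the factors of this family bind E-boxes, spelled CANNTG, a motif that reads the same on both strands. The 250 bases upstream of the start site, at chr11:98329646-98329895 on the minus strand, from RefSeq for GRCm38.p6, are given 5′ to 3′ with E-boxes in capitals.
Neurod2: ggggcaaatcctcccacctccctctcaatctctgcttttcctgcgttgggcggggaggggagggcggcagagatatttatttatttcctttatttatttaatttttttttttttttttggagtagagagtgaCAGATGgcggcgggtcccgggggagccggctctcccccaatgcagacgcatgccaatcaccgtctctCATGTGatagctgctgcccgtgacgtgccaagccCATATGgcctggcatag
This window held 3 E-boxes. At least 1 E-box was present in 66.2% of the 32851 windows of this length, and 12.2% held as many as Neurod2 or more. A match of letters is a description and not a binding site.

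The retinas held 13127 to 41048 cells each, with a median of 285 to 326 puncta per cell over the whole panel. Levels are given as puncta of the gene per 1000 puncta of the panel, which sets aside how many puncta a cell had in all. The probes of different genes may not detect transcripts equally well, so the level of Neurod2 was not set against that of Bhlhe22. Each deposited cell was labelled an RGC and held at least 100 puncta.

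Over all RGCs, each factor was seen in a minority of cells. Neurod2 stood at 0.510, 0.553, 0.473, 0.525 and 0.498 per 1000 puncta in retinas 1 to 5, a mean of 0.512 ± 0.030 (SD, n = 5). At least 1 punctum of it was seen in 10.0% ± 0.40 of the cells. Bhlhe22 stood at 0.997, 0.990, 0.930, 0.987 and 1.05 per 1000 puncta, a mean of 0.991 ± 0.042, and was seen in 21.1% ± 0.96 of the cells. The retinas were close to each other for both genes. With each cell thinned to 100 puncta, the shares were 4.26% ± 0.25 for Neurod2 and 8.73% ± 0.36 for Bhlhe22, so a share of cells with a punctum depends on depth. Most cells, 73.2% ± 1.1, had neither transcript. Neurod2 alone was seen in 5.70% ± 0.16, Bhlhe22 alone in 16.8% ± 0.86 and both in 4.33% ± 0.24.

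Neurod2 was concentrated in 8 types. Types are given by the names in the deposited table, whose numbers and suffixes are the authors'. The types may rest on these same genes, so the levels by type are a description with no test. The highest mean was in 35_Novel, with 6.24, 7.07, 7.70, 5.75 and 5.38 per 1000 puncta in retinas 1 to 5. This was a small type of 428 cells, with 26 in the retina that had the fewest and as few as 52 Neurod2 puncta in a retina. In 19_Novel the values were 5.34, 5.83, 5.82, 5.58 and 4.94. The ranges of these leading types overlapped, but 35_Novel was above 19_Novel within each of the 5 retinas. Then followed 25_Novel at 3.78 ± 0.33, 12_ooDS_NT at 3.51 ± 0.28, 20_Novel at 3.37 ± 0.22, 39_Novel at 2.90 ± 0.18, 29_Novel at 2.65 ± 0.069 and 26_Novel at 1.27 ± 0.13. Of these, 12_ooDS_NT belongs to the on-off direction-selective cells by its label. It held the most Neurod2 puncta of the 8, 23.8% of all, because it is also the commonest of them with 4456 cells.

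Below these types the level dropped by a step. 26_Novel was 4.79-fold above the next type, 36_Novel, at 0.265 ± 0.070, and all 5 retinas of 26_Novel, at 1.11 to 1.40, lay above all 5 of 36_Novel, at 0.149 to 0.337. The other 36 types lay at or below 0.231, down to 0.074 ± 0.016 in 43_AlphaONS, an alpha RGC type by its label. The 8 leading types, a group named after this step was seen, made up 11.05% ± 0.29 of cells and held 75.0% ± 2.1 of all Neurod2 puncta. In them 57.7% ± 2.0 of cells had a Neurod2 punctum, against 4.10% ± 0.19 of cells of the other types. Their median totals were 330 and 298 puncta per cell.

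Neighbours in the order were called separated where their difference had 1 sign in all 5 retinas. This held for 6 of the 44 neighbouring pairs of Neurod2, all within the leading 8 types or at the step below them. Among the lower types no neighbouring pair was separated.

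Bhlhe22 had a more graded order. Its highest mean was also in 35_Novel, at 9.69, 10.99, 9.63, 9.85 and 11.4 per 1000 puncta in retinas 1 to 5. In that type 86.9% of cells had a Bhlhe22 punctum and 46.1% had 3 or more. The next, 44_Novel, varied widely, at 10.2, 7.32, 6.45, 10.7 and 4.59, with 31 cells in the retina that had the fewest. After these came 25_Novel at 4.04 ± 0.45, 19_Novel at 3.65 ± 0.51, 39_Novel at 3.48 ± 0.38, 20_Novel at 2.78 ± 0.18, 29_Novel at 2.65 ± 0.46 and 14_ooDS_Cck at 2.63 ± 0.29. The largest step, 1.94-fold, was from 44_Novel to 25_Novel. All retinas of 35_Novel, at 9.63 to 11.4, also lay above all those of 25_Novel, at 3.32 to 4.40. A step of 1.87-fold separated 14_ooDS_Cck from 32_F_Novel, at 1.41 ± 0.11. Levels then declined gradually to 0.327 ± 0.055 in 43_AlphaONS.

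The 8 types highest in Bhlhe22 made up 9.12% ± 0.24 of cells and held 32.7% ± 3.0 of its puncta, so most Bhlhe22 puncta lay in types of low level. Of its 44 neighbouring pairs 5 were separated. The leading 8 of each gene shared 6 types, namely 35_Novel, 19_Novel, 25_Novel, 20_Novel, 39_Novel and 29_Novel.

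The label RGC was checked in 44_Novel against markers, since its Bhlhe22 level stood apart from its low Neurod2 level of 0.197 ± 0.14. Its summed level of the 6 RGC markers on the panel was 47.8 ± 4.4 per 1000 puncta, the lowest of the 45 types, whose median was 83.8. It was the highest of the types in microglia markers (8.90 against a median of 0.14), in the endothelium marker (12.1 against 0.18) and in Müller glia markers (20.2 against 4.89). These markers go against its label, so its Bhlhe22 level is given by name only. The correlations of Neurod2 with Bhlhe22 over types, the odds ratio over all cells and the radial difference of Bhlhe22 are also given without it below. The correlations of each member with other panel genes over types include it, as do the genes and marker lists compared by gate. 44_Novel held 314 cells and 1.44% of the Bhlhe22 puncta.

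**Figure D1:**
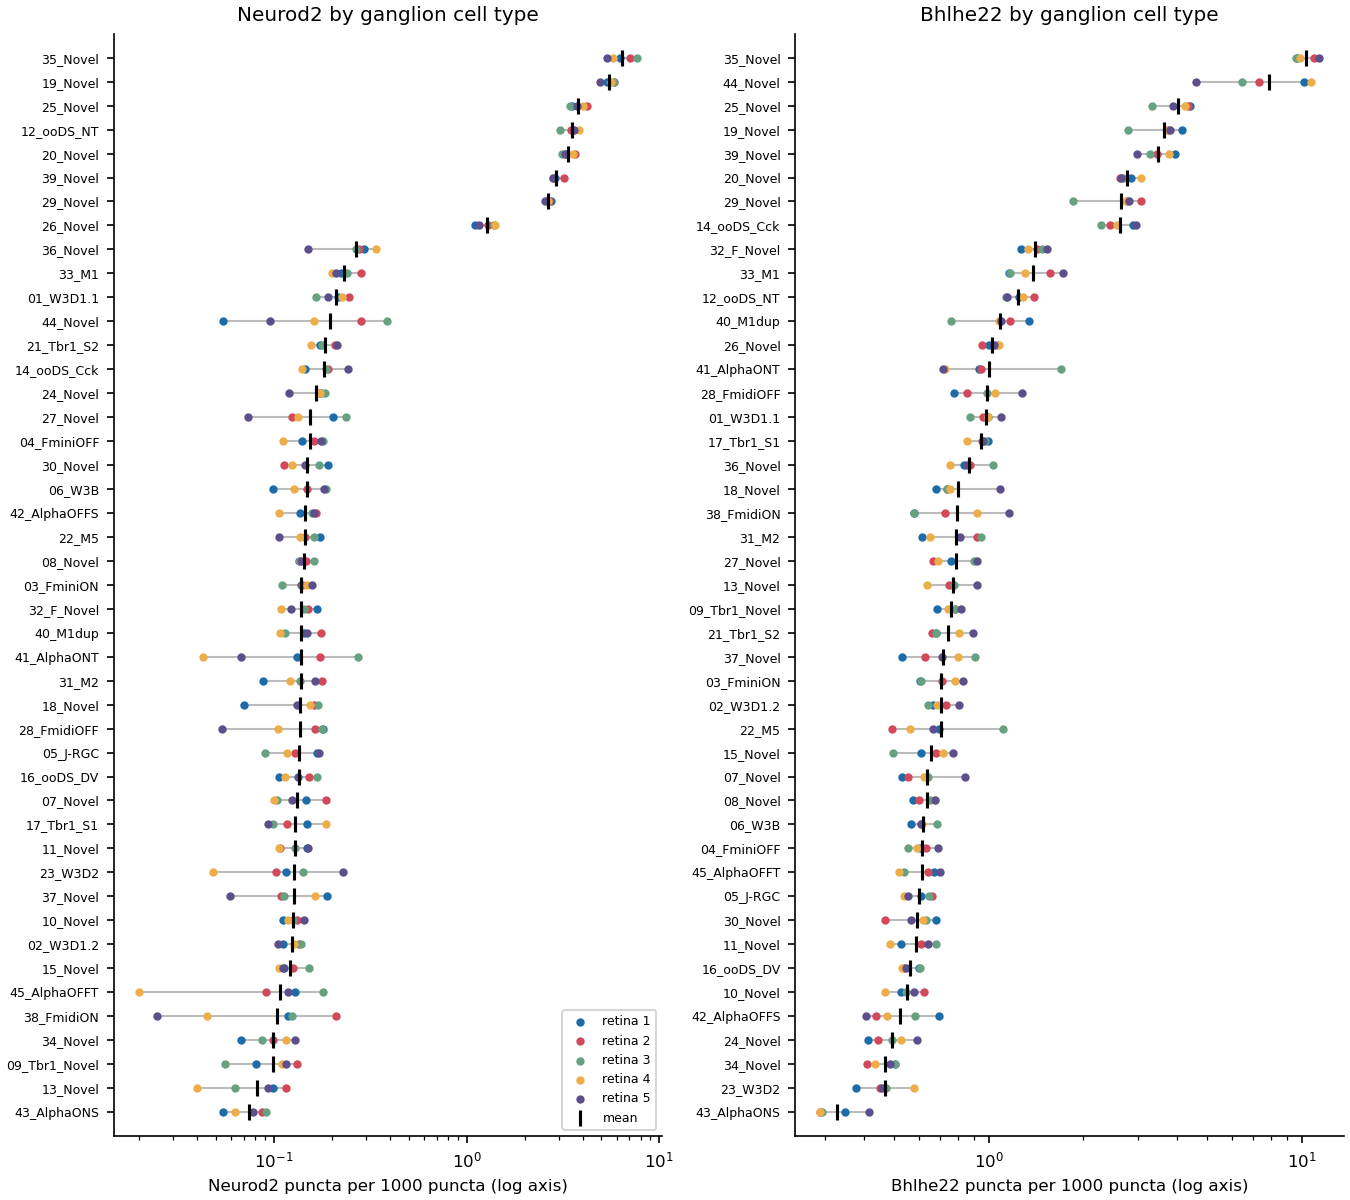
Level of Neurod2 (left) and Bhlhe22 (right) in each of the 45 types, in puncta per 1000 panel puncta on log axes. Points are the 5 retinas, the grey line spans them and the black bar is their mean. Neurod2 has a gap between 26_Novel (1.27) and 36_Novel (0.265), while Bhlhe22 falls more gradually.

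The direction-selective types set both factors apart from each other. These on-off cells respond to motion in 1 direction and are split in the table into 12_ooDS_NT, 14_ooDS_Cck and 16_ooDS_DV. Neurod2 stood at 3.57, 3.48, 3.05, 3.81 and 3.62 per 1000 puncta in 12_ooDS_NT and at 0.145, 0.191, 0.187, 0.139 and 0.242 in 14_ooDS_Cck. The groups did not overlap, and 12_ooDS_NT was 19.7-fold higher (log2 4.30 ± 0.38, SD, n = 5). It was 26.4-fold above 16_ooDS_DV, at 0.134 ± 0.025. For Bhlhe22 the order was the other way. It stood at 2.89, 2.45, 2.29, 2.58 and 2.96 in 14_ooDS_Cck and at 1.25, 1.40, 1.14, 1.29 and 1.14 in 12_ooDS_NT, again without overlap. The log2 difference of 12_ooDS_NT from 14_ooDS_Cck was −1.08 ± 0.22. 14_ooDS_Cck was 4.66-fold above 16_ooDS_DV, which was low in both genes. Among the melanopsin types, 33_M1 was above 31_M2 in both genes in all 5 retinas, by 1.72-fold for Neurod2 and 1.77-fold for Bhlhe22. Neurod2 was low in 33_M1, at 0.231 ± 0.033 on 86 puncta. Summed RGC markers were 52.7 in 33_M1 and 64.5 in 31_M2, against a median of 83.8 over types. Müller glia markers were 9.49 and 10.5 against 4.89, microglia markers 1.98 and 1.21 against 0.14, and the endothelium marker 1.25 and 1.00 against 0.18. The part of such RNA in this difference was not tested.

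Over the 45 types, the levels of the genes had a Spearman correlation of 0.634 and a Pearson correlation of 0.752 on the log2 scale. Without 44_Novel these were 0.618 and 0.840. Over the 37 types outside the Neurod2 leading 8 the Spearman correlation was 0.372. These are descriptions across types that share retinas, sections and the panel total, and the types are not replicates.

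**Figure D2:**
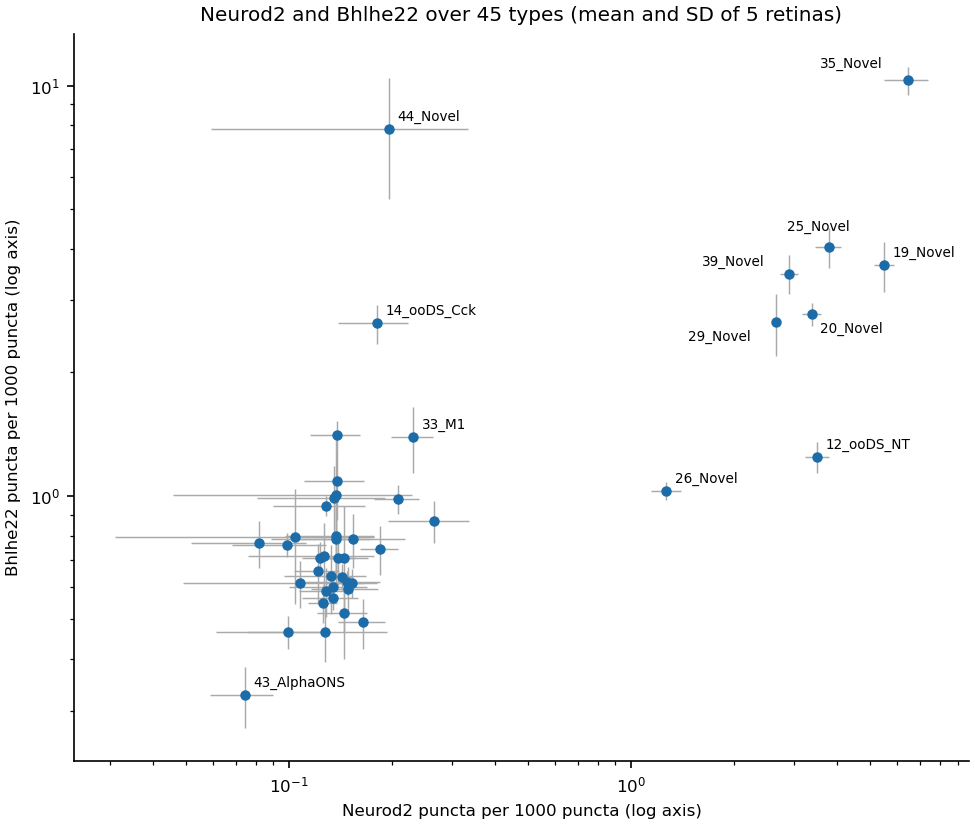
Neurod2 against Bhlhe22 level in each of the 45 types, both in puncta per 1000 panel puncta on log axes, as the mean with SD of 5 retinas. 6 types are high in both, 12_ooDS_NT and 26_Novel are high in Neurod2 and 14_ooDS_Cck and 44_Novel in Bhlhe22.

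The panel genes whose levels over types were most like those of each member were named by rank of the Spearman correlation. Beside Bhlhe22, the genes most like Neurod2 were Lrrn3 (0.581), Penk (0.576), Kcnq3 (0.563), Tmem215 (0.503) and Cacng4 (0.481). Lrrn3 encodes a leucine-rich repeat membrane protein, Penk the enkephalin precursor, Kcnq3 a subunit of the M-type potassium channel and Cacng4 an auxiliary subunit of AMPA receptors. Penk stood at 17.1 per 1000 puncta on average in the 8 Neurod2 types and at 2.43 in the others. The former average includes 19_Novel, its highest type, at 53.9. The genes least like Neurod2 were Kcnh2 (−0.444), a potassium channel, Gprc5b (−0.40), Isl2 (−0.387) and Anxa2 (−0.368). For Bhlhe22 the most alike were Rab3b (0.728), a synaptic vesicle GTPase, Neurod2 (0.634), Pax2 and Penk (both 0.621), Cbln2 (0.618) and Gria4 (0.616). The least alike were Anxa2 (−0.571), Calb1 (−0.489), Isl2 (−0.478) and Scn7a (−0.469). The median correlation over all panel genes was 0.097 with Neurod2 and 0.186 with Bhlhe22, so weak positive values were common.

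Cells with a punctum of either factor more often had the other as well. Of cells with Neurod2, 43.1% ± 0.81 also had Bhlhe22, against 18.7% ± 1.0 of the other cells. Of cells with Bhlhe22, 20.5% ± 1.0 had Neurod2, against 7.23% ± 0.28. Cells with Neurod2 had more puncta in all, with a mean over retinas of the median of 357 against 295, so the odds were taken at equal depth. With each cell thinned to 100 puncta, the log2 odds ratio was 1.68, 1.63, 1.40, 1.46 and 1.35 in retinas 1 to 5. The mean was 1.51 ± 0.14, and an exact two-sided permutation test that flips the sign of each retina gave p = 0.0625, the smallest that 5 retinas allow. Without 44_Novel it was 1.51 ± 0.15.

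The odds ratio was smaller within types. With cells compared only within their type (Mantel-Haenszel), the log2 odds ratio was 0.544, 0.324, 0.533, 0.231 and 0.242 in retinas 1 to 5, a mean of 0.375 ± 0.154 (exact permutation test, p = 0.0625). All retinas were above 0. With detection set at 2 puncta the within-type value was 0.36 ± 1.80, above 0 in 4 of 5 retinas and at −2.42 in retina 3 (exact permutation test, p = 0.5625). Among the 8 Neurod2 types the mean log2 odds ratio lay above 0 in 8 of 8, from 0.058 in 12_ooDS_NT to 0.468 in 35_Novel. Of these 8, 1 was above 0 in all 5 retinas, and they had 26 to 218 cells with both transcripts, so single types were not read. In the other 37 types the mean was above 0 in 34, and 19 were above 0 in all 5 retinas. Their median was 1.30, against 0.31 in the 8. Only 0 to 35 cells had both there, with a median of 4, and 0.5 was added to each count. These values were therefore not read either.

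Cells were then compared by whether they had at least 1 punctum of a factor, leaving the gate gene out and fitting all other panel genes with edgeR. In retinas 1 to 5, Bhlhe22 was 0.815, 0.795, 0.795, 0.821 and 0.894 per 1000 puncta in cells without Neurod2, and 2.38, 2.42, 2.02, 2.30 and 2.21 in cells with it. The groups did not overlap (log2 fold change 1.53 ± 0.05, SE, adjusted p = 2.4e-11). Neurod2 was 0.334, 0.352, 0.327, 0.348 and 0.339 in cells without Bhlhe22 and 1.08, 1.22, 0.946, 1.13 and 0.971 in cells with it (1.66 ± 0.05, adjusted p = 1.1e-08). Such gates called 71.6% of the 299 genes tested with Neurod2 and 65.9% of 299 with Bhlhe22, so a call by itself says little about either factor. Given the same mix of types in both gates (limma on the 5 differences), Bhlhe22 remained higher with Neurod2 by 0.46 ± 0.04 (adjusted p = 0.0071) and Neurod2 with Bhlhe22 by 0.42 ± 0.01 (adjusted p = 3.3e-05). That comparison called 15.1% and 41.8% of genes. It rested on 16 to 37 types per retina with Neurod2 and on 40 to 44 with Bhlhe22.

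Beside Bhlhe22, the genes highest with Neurod2 were Rab3b, Penk, Slc17a7, Tmem215, Nell1, Tfap2d and A730046J19Rik. Penk rose from 3.33 ± 0.13 to 11.1 ± 0.50 per 1000 puncta (1.79 ± 0.02), and Slc17a7, the vesicular glutamate transporter VGLUT1, from 1.16 ± 0.35 to 3.24 ± 0.30. The lowest were Opn4 (−1.39 ± 0.09), the melanopsin gene, Spp1 (−1.27 ± 0.07), an osteopontin gene of alpha cells, Isl2, Igf1, Lypd1, Tbx20, Foxp2 and Zic1. All 16 changed 1 way in all 5 retinas, the largest adjusted p being 1.1e-06 for A730046J19Rik in edgeR. With the same mix of types, 10 of the 16 passed (Rab3b, Penk, Slc17a7, Tmem215, Bhlhe22, Nell1, Tfap2d, Spp1, Igf1 and Zic1), with smaller differences, Penk at 0.23 ± 0.04 and Tmem215 at 0.65 ± 0.07.

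With Bhlhe22, the highest beside Neurod2 were Rab3b (0.88 ± 0.05), Slc17a7 (0.86 ± 0.10), Tmem215, Penk, C1ql2, Tac2 and Tfap2d. The lowest were Spp1 (−0.54 ± 0.03), Zic1, Tbx20, Isl2, Kcnd2, Prph, Tpbg and Anxa2. C1ql2, a complement-like synaptic protein, rose from 0.287 ± 0.046 to 0.457 ± 0.089 per 1000 puncta. With the same mix of types C1ql2 differed by 0.67 ± 0.02 and Tac2, a tachykinin precursor, by 0.61 ± 0.04, both as much as over all cells, and 12 of the 16 passed. Penk (0.06 ± 0.02), Slc17a7 (0.08 ± 0.04), Zic1 and Tbx20 did not.

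Markers of amacrine cells, the neighbouring inhibitory neurons in which both factors are known, moved with the Bhlhe22 gate. Their summed level over the 15 of 19 markers on the panel was 49.1 to 51.1 per 1000 puncta in retinas without and 55.4 to 58.8 with Bhlhe22, and none of the 15 was at 0. Of the 15, 11 were higher and 0 lower with Bhlhe22, against the 65.9% called over all genes in either direction, with a median log2 fold change of 0.21 against −0.0013 over all genes. With the same mix of types 10 were higher and 0 lower (median 0.14), against 41.8% of all genes called in either direction. Gad1, an enzyme of GABA synthesis, was 0.50 ± 0.02 higher with the gate and Tfap2a 0.47 ± 0.03. For Neurod2 the summed levels were 49.8 to 52.3 without and 57.0 to 60.5 with it. There 6 markers were higher and 1 lower, and scaling by library size alone gave 4 and 4. Much of the Neurod2 sum came from Meis2, at 8.79 and 14.2, and from Pax6, which RGCs also express, at 26.3 and 28.8. The part of amacrine RNA in these results was not tested. Leaving out cells with 10 or more puncta of 7 amacrine genes, a cut that was not planned, removed 8.37% of cells. It gave 8 higher and 0 lower with Bhlhe22 and kept the direction and call of all 16 named genes of each gate. The 7 genes are among the markers counted, so this cut cannot show the part of amacrine RNA. Müller glia markers, at 4.34 to 5.89 without and 4.66 to 6.14 with Bhlhe22, and astrocyte markers, at 1.39 to 1.81 and 1.59 to 1.95, were also higher with it in 5 of 5 retinas. Of these, 3 of 5 and 2 of 3 genes were called higher and 0 lower, and 3 and 1 with the same mix of types. Cells with Bhlhe22 also had more puncta in all, with a mean over retinas of the median of 341 against 291. These marker levels were not taken at equal depth. Markers of horizontal cells, which share the gene Onecut1 with RGCs, stood at 13.3 to 14.5 without and 8.33 to 9.45 with Neurod2, and at 13.3 to 14.6 without and 10.8 to 12.2 with Bhlhe22. Calb1, also on that list, differed between RGC types, at 2.46 on average in the 8 Neurod2 types and 6.86 in the others.

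Other lists were described by counts, to be read against the 71.6% of all genes called with Neurod2 and 65.9% with Bhlhe22. Counts with the same mix of types are to be read against 15.1% and 41.8%. Of the 20 RGC transcription factor genes on the panel, 6 were higher and 14 lower with Neurod2, and 6 and 10 with Bhlhe22. These were 3 and 3, and 4 and 7, with the same mix of types. Of 58 voltage-gated channel genes, 31 were higher and 16 lower with Neurod2, with 25 and 22 when scaled by library size alone, and 16 and 21 with Bhlhe22. The same mix of types left 4 higher and 4 lower with Neurod2, and 7 and 12 with Bhlhe22. A list of basic helix-loop-helix and related genes had 3 other tested genes on the panel. Of these, Ebf3 rose with Neurod2 and with Bhlhe22, by 0.53 ± 0.04 and 0.23 ± 0.02. Hes1, a Notch target repressor, fell with both, by 0.44 and 0.16 on the log2 scale. Neither passed in either gate with the same mix of types, Ebf3 being at 0.08 ± 0.03 and 0.01 ± 0.02 and Hes1 at −0.18 ± 0.11 and −0.03 ± 0.03. Neurod4 differed by 0.11 ± 0.09 and 0.10 ± 0.05 and was not called.

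Cells with Neurod2 alone were compared directly with cells with Bhlhe22 alone. Penk stood at 8.79 ± 0.51 against 3.68 ± 0.39 per 1000 puncta (1.36 ± 0.04), Nell1, a secreted growth factor, at 7.57 ± 0.36 against 3.65 ± 0.10, and Rab3b, Tmem215, Slc17a7, Evc2, Kcnq3 and Kcnj3 were also higher. Lower with Neurod2 alone were Sst (−1.06 ± 0.32, adjusted p = 0.0048 in edgeR), the somatostatin gene, Opn4, Cck, Igf1, Maf, Onecut1, Lypd1 and Lmo2. Sst stood at 0.031 ± 0.008 with Bhlhe22 alone and 0.011 ± 0.007 with Neurod2 alone, on 261 puncta. Of the 15 amacrine markers, which include Sst, 3 were higher and 6 lower with Neurod2 alone, or 3 and 10 when scaled by library size alone, and 0 and 2 with the same mix of types. Without cells of 10 or more amacrine puncta they were 3 and 3 of 14 tested. Sst was not tested there, and the other 15 named genes kept their direction and call. The part of amacrine RNA in this comparison was not tested. This comparison called 68.7% of 297 genes, 89 higher and 115 lower, or 63 and 151 when scaled by library size alone, which moved the median log2 fold change of all genes from −0.02 to −0.13. With the same mix of types, limma called 3.69% of 298 genes. Of the 16 named genes, only Maf (−0.71 ± 0.07, adjusted p = 0.032) and Nell1 (0.34 ± 0.04, adjusted p = 0.032) passed. Retinas 3 and 5 gave 7 and 8 types to that comparison. Maf, a transcription factor, kept the size it had over all cells (−0.72 ± 0.07).

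**Figure D3:**
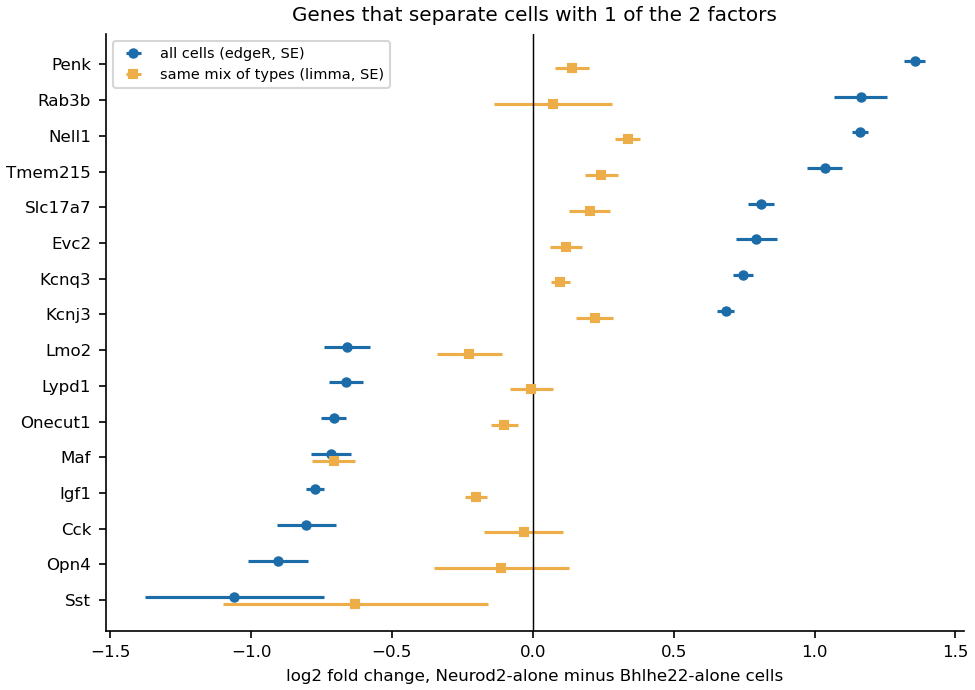
log2 fold change of the 16 named genes between cells with Neurod2 alone and cells with Bhlhe22 alone, over all cells (blue circles, edgeR) and with the same mix of types (orange squares, limma). Bars are SE over 5 retinas. Maf is as low in both (−0.72 and −0.71), while Penk goes from 1.36 to 0.14.

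Along the radial axis Neurod2 was lower in the periphery, split from the centre at a scaled radius of 0.5. In the centre it stood at 0.564, 0.644, 0.533, 0.628 and 0.538 per 1000 puncta in retinas 1 to 5 and in the periphery at 0.492, 0.505, 0.405, 0.476 and 0.451. Each retina was lower in the periphery and the ranges did not overlap (log2 fold change −0.33 ± 0.06, SE, adjusted p = 0.033 in edgeR). This contrast called 6.67% of 300 genes. The call was lost without retina 2 (adjusted p = 0.135), 4 (0.153) or 5 (0.060). It was also lost with no replicate block (adjusted p = 0.282) and with the slide as a block (0.081). Bhlhe22 was 1.14, 1.01, 0.987, 0.995 and 1.06 in the centre and 0.951, 0.981, 0.866, 0.984 and 1.03 in the periphery. It was lower in 5 of 5 retinas, but the ranges overlapped and it was not called (−0.12 ± 0.05, adjusted p = 0.160 in edgeR). Without 44_Novel the Bhlhe22 difference was −0.15 ± 0.05 (adjusted p = 0.111 in edgeR).

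The mix of types also differed along this axis. The share of cells in the 8 Neurod2 types was 12.1% ± 0.40 in the centre and 10.4% ± 0.45 in the periphery, lower in 5 of 5 retinas (log2 −0.22 ± 0.02, SD). Among them 35_Novel, 19_Novel, 12_ooDS_NT, 39_Novel and 26_Novel had a lower share in the periphery in all 5 retinas. Once both sides were given 1 mix of types, the Neurod2 difference was −0.16 ± 0.04 and was not called (adjusted p = 0.110 in limma), and that of Bhlhe22 was −0.08 ± 0.05 (adjusted p = 0.385). The radial log2 difference of Neurod2 minus that of Bhlhe22 was −0.21 ± 0.17 and lay below 0 in 4 of 5 retinas (SD, n = 5, exact sign-flip permutation test, p = 0.125, and 0.125 adjusted over 3 axes).

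In 5 rings from the centre outwards, Neurod2 was highest on average in the second. It rose from the innermost ring to the next in retinas 1 (0.459 to 0.579) and 2 (0.591 to 0.705). In retina 3 it rose into the outermost ring (0.379 to 0.455). In retina 5 it rose from the middle ring to the outermost (0.440 to 0.503). A steady decline from the centre was thus seen in retina 4 alone.

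**Figure D4:**
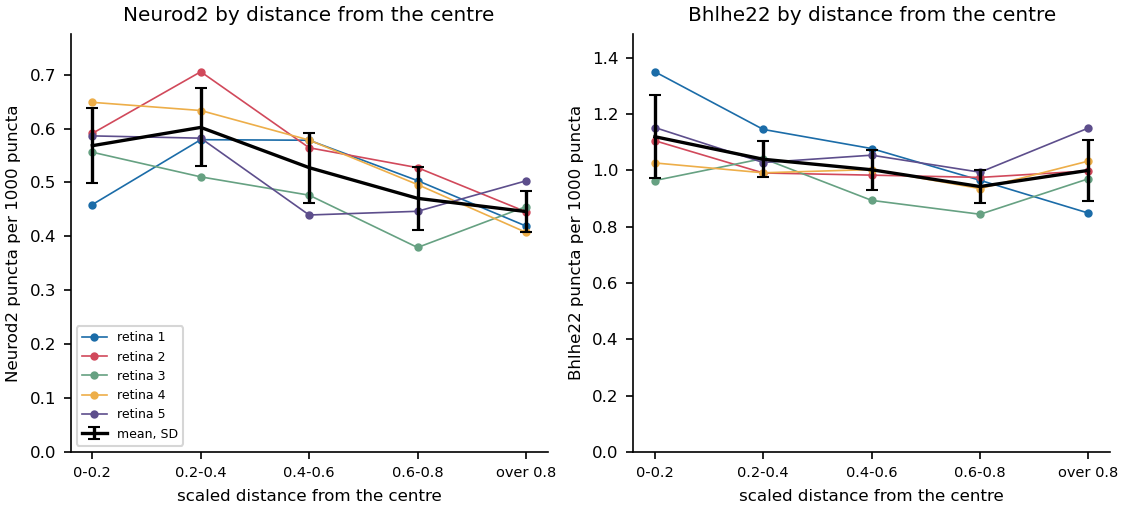
Neurod2 (left) and Bhlhe22 (right) level, in puncta per 1000 panel puncta, in 5 rings of scaled distance from the centre. Coloured lines are the 5 retinas and the black line is their mean with SD. Mean Neurod2 runs 0.568, 0.602, 0.527, 0.470 and 0.446 from the innermost to the outermost ring and Bhlhe22 1.12, 1.04, 1.00, 0.943 and 1.00.

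Within types no single type was called for Neurod2. Of the 22 types that could be fitted, all had a fitted radial difference below 0, with a median of −0.23. Bhlhe22 was fitted in 40 types, so it was the filter for low counts that left Neurod2 out of more types. Types with few Neurod2 puncta are therefore missing from this count. The means of the retinas ran the other way in 04_FminiOFF (0.155 and 0.156) and 19_Novel (5.45 and 5.52). In these 22 types 0 were called in edgeR, 6 being under an unadjusted p of 0.05 and 0 being called by DESeq2. The largest values were in types of low level, such as 08_Novel (−0.68 ± 0.27). Among the leading types 29_Novel (−0.43 ± 0.17, 3 retinas) and 25_Novel (−0.19 ± 0.08) were lower in all retinas that could be used, while 12_ooDS_NT (−0.02 ± 0.09) and 19_Novel (−0.02 ± 0.10) lay near 0. For Bhlhe22, 28 of 40 types were below 0 with a median of −0.12, and 1 was called. In 28_FmidiOFF, by its name one of the F-RGCs that are known for Foxp2, Bhlhe22 stood at 1.28 ± 0.20 per 1000 puncta in the centre and 0.811 ± 0.18 in the periphery (−0.68 ± 0.17, adjusted p = 0.037). It was lower in 5 of 5 retinas but rested on 477 puncta. DESeq2 did not call it, and edgeR called it in 1 of the 5 fits that left out a retina, the one without retina 3. These within-type fits called 2.34% of 10227 type and gene pairs, whose median was 0.0035, with 48.9% below 0. A difference below 0 in every type that could be fitted was found for 3 of 294 genes.

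**Figure D5:**
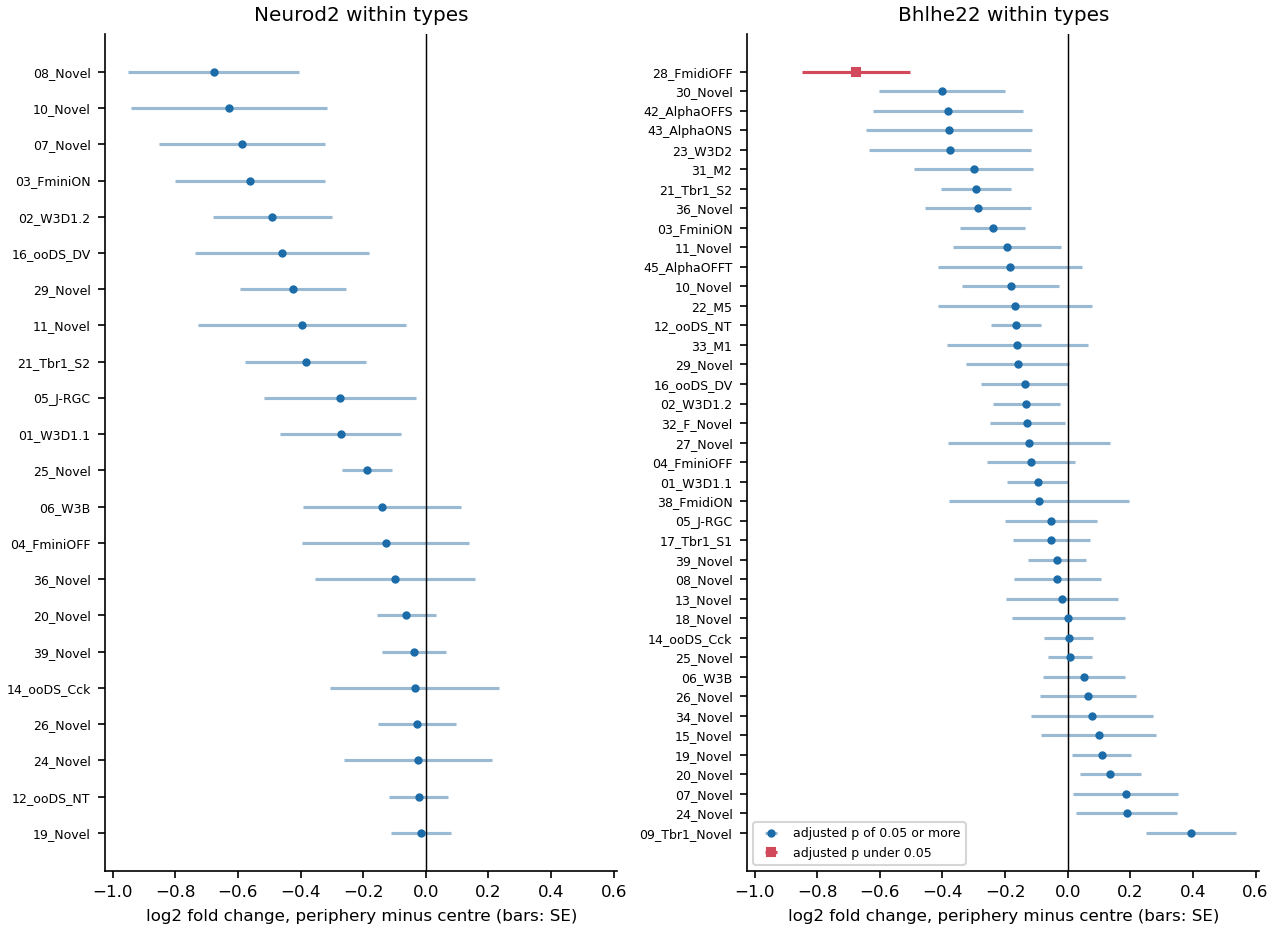
Fitted log2 difference of periphery minus centre within each type for Neurod2 (22 types, left) and Bhlhe22 (40 types, right), with SE. The red square is 28_FmidiOFF (−0.68), the only type called at an adjusted p under 0.05, and all fitted Neurod2 values lie below 0.

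Along the X and Y axes neither gene was called. The labels give no anatomical direction for X or Y. Neurod2 was 0.554 ± 0.052 per 1000 puncta where Y was below 0 and 0.462 ± 0.027 where it was above, lower in 4 of 5 retinas (−0.27 ± 0.08, adjusted p = 0.425 in edgeR). Bhlhe22 was lower with Y in 5 of 5 retinas (−0.09 ± 0.04, adjusted p = 0.438). The Y axis called 0% of the 300 genes, with 31 at an unadjusted p under 0.05 and 6 called by DESeq2. With the section as a block Neurod2 was called along Y (−0.35 ± 0.09, adjusted p = 0.0071 in edgeR), with 44 of 295 genes. That setting counts sections of 1 retina as separate replicates, so its p-values do not rest on the spread between the 5 retinas. The Neurod2 difference along Y was −0.10 ± 0.04 with the same mix of types (adjusted p = 0.536 in limma). Along X, Bhlhe22 was higher in 5 of 5 retinas, from 0.956 ± 0.056 to 1.02 ± 0.031 (0.10 ± 0.04, adjusted p = 0.137), and was called without retina 5 (0.12, adjusted p = 0.049). The difference was 0.03 with the slide as a block (adjusted p = 0.775) and 0.03 with the section as a block (adjusted p = 0.703). Neurod2 differed by −0.05 ± 0.08 (adjusted p = 0.737), higher in 3 of 5 retinas and lower in retinas 1 (0.517 to 0.505) and 5 (0.572 to 0.421). The X axis called 10% of genes.

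Within types, 0 of 27 types were called along Y for Neurod2 (3 at an unadjusted p under 0.05) and 0 of 42 for Bhlhe22 (2), against 0.415% of all pairs. Along X they were 0 of 28 (0) and 0 of 43 (4), against 0.281%, and DESeq2 called 0 in each case. The commonest Neurod2 type, 12_ooDS_NT, had Neurod2 at 3.82 ± 0.26 where Y was below 0 and 3.17 ± 0.27 above, lower in 5 of 5 retinas (−0.30 ± 0.06, adjusted p = 0.118).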

How the data were processed

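The deposited table, per the file headers, gives counts of puncta per cell for 300 genes, and lists each cell's retina, slide, section, scaled position and type. These counts entered as deposited. Segmentation, filters and typing are not given in the sources used here. No label ties slides to the 4 deposited samples, so the retina was the replicate.

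Sums of counts over each retina's side, gate or type were fitted with edgeR 4.0.16 under R 4.3.3 (quasi-likelihood, TMM, filterByExpr, retina as a block). Benjamini-Hochberg adjustment ran over all genes of a contrast, or all type and gene pairs, at 0.05. Sides within types needed at least 50 cells in at least 3 retinas. The same-mix comparison weighted types with at least 20 cells equally in either side and took the 5 differences into limma 3.58.1. A mean-variance trend in limma was added after the calls without it had been seen, and is given only as an alternative. DESeq2 1.42.0 was the alternative tool. Both sides of a contrast come from the same retina, so the replicate block follows from the tissue. Odds ratios added 0.5 to each count. Descriptions and figures came from Python 3.11.15 (pandas 2.3.3, numpy 2.4.6, matplotlib 3.10.9, scipy 1.17.1). The fits were tested on simulated data.

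The genes, lists and tests were chosen with earlier results of these data known. Named genes were the 6 most and 4 least alike over types, up to 8 per direction in each gate, called, changed 1 way in all retinas and with at least 100 puncta, and members of the lists. The group of 8 leading types was set after the levels were seen. At median totals of 285 to 326 puncta a cell, detection of 1 gene in 1 cell is incomplete.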

Additional observations from a re-analysis of the deposited data

Results flagged for a closer look

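In 5 of 100 groups of 5 retinas, 1 retina lay far from the other 4, about what chance gives (1 in 20). Bhlhe22 in 29_Novel (mean 2.65 per 1000 puncta) was 1.86 in retina 3 against 2.74 to 3.06 in the others. Bhlhe22 in 41_AlphaONT (mean 1.01) was 1.71 in retina 3 against 0.718 to 0.947. Bhlhe22 in 18_Novel (mean 0.799) was 1.09 in retina 5 against 0.681 to 0.755. Neurod2 in 39_Novel (mean 2.90) was 3.22 in retina 2 against 2.80 to 2.88. Neurod2 in 24_Novel (mean 0.165) was 0.12 in retina 5 against 0.172 to 0.184.

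Some types moved opposite ways in every retina, a difference that was not tested. Along Y, the fitted log2 difference of Neurod2 was 0.13 in 03_FminiON, and −0.30 in 12_ooDS_NT, −0.42 in 14_ooDS_Cck and −0.35 in 26_Novel. Along the radial axis, that of Bhlhe22 was 0.39 in 09_Tbr1_Novel, and −0.24 in 03_FminiON, −0.17 in 12_ooDS_NT, −0.29 in 21_Tbr1_S2, −0.38 in 23_W3D2, −0.68 in 28_FmidiOFF and −0.40 in 30_Novel.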

How the results depend on the processing

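Of the alternatives, 181 kept the direction and the side of the threshold, or moved by less than the spread. The radial difference of Neurod2 lost its call with no replicate block (−0.33), with the slide as a block (−0.34), with the same mix of types (−0.16, with and without a mean-variance trend) and in 3 of 5 fits that left out a retina (−0.37 to −0.31, adjusted p 0.0086 to 0.153). Along Y, Neurod2 was called with the section as a block (−0.35). Along X, leaving out a retina gave −0.11 to 0.041 for Neurod2, with the sign turned without retina 5, and 0.086 to 0.12 for Bhlhe22, which was at 0.03 with the slide or the section as a block. Types called for Bhlhe22 along the radial axis were 0 in DESeq2 and 0 to 1 without a retina; the latter also held for Neurod2 along Y and Bhlhe22 along X. The log2 odds ratio was 1.72 in cells as deposited, 1.68 thinned to 200 puncta, 2.82 at 2 puncta and 1.88 without cells with 3 or more amacrine puncta, which leaves out 59.6% of cells. Within types it was 0.81 as deposited and 0.36 at 2 puncta (p = 0.5625, exact permutation test). By Pearson correlation 2 of the 6 genes most like Bhlhe22 were shared. Panel-wide calls moved as well. The radial axis had 20 calls (10 higher), 44 in DESeq2 (29 higher), 23 by library size alone (14 higher), 41 with the section as a block (28 higher), 32 split at 0.6, 1 with no replicate block and 2 to 53 without a retina. With the same mix of types it had 0 (71 at an unadjusted p under 0.05), or 18 with a mean-variance trend, a setting added after the 0 had been seen. X had 30 calls (19 higher), 49 in DESeq2 (25 higher), 1 with no replicate block, 2 to 43 without a retina, and 0 with the same mix of types, or 4 with the trend. Y had 0 calls, or 44 with the section as a block. The Neurod2 gate had 214 calls and 45 with the same mix of types, or 69 with the trend. The Bhlhe22 gate had 197, 125 and 152, and 85 with no replicate block. Cells with 1 factor alone had 204, 11 and 33, and 131 with no replicate block. The fit with no replicate block is the unpaired one, since both sides of each contrast share a retina. Fits with the slide or the section as a block count parts of 1 retina as separate replicates. Low puncta per cell limit single types.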
